A study of Mus musculus with 4 samples.

Results

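A set of 10 genes that neurons switch on when they are active was followed in single-nucleus RNA-sequencing data from the mouse hippocampus: Arc, Npas4, Homer1, Nptx1, Nptx2, Ptgs2, Gadd45b, Gadd45g, Rgs2 and Plk2. They were chosen by name among the 32285 genes counted, and each had 1 entry in the count tables. The study compared wild-type (WT) C57BL/6N mice with heterozygous knock-in (KI) mice that carry the R87C change in 1 copy of Cyfip2, a subunit of the WAVE complex that drives branching of actin filaments. The change models one found in an early epileptic encephalopathy, and as a germline knock-in it is present in every cell type. Each group had 2 mice of postnatal week 28, and the hippocampus of both hemispheres of a mouse gave 1 library. KI mice of this line have spontaneous seizures at this age, and the time from the last seizure to sampling is not given in the sources used here, so its part in the levels of these genes was not tested. The treatment label of KI replicate 2 reads R88C where that of KI replicate 1 reads R87C. It was kept as KI because its title and genotype label say so, and counts per gene do not separate the alleles of Cyfip2.

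Activity opens calcium channels and receptors at the synapse, calcium activates kinases, and these act on CREB, SRF and MEF2 at promoters and enhancers that are already accessible. A first wave of transcription factors appears within minutes, and effector genes that change the synapse itself follow or appear with it. In the hippocampus such transcripts mark the few neurons that fired recently, and they differ in how long they last. Npas4 is a transcription factor that responds to calcium and tunes inhibitory synapses. Arc drives endocytosis of AMPA receptors, and Homer1 encodes scaffolds of the postsynaptic density that tie metabotropic glutamate receptors to Shank proteins and to the inositol trisphosphate receptor. Its short form Homer1a, induced by activity, breaks these ties. Plk2 is a kinase that weakens synapses after long activity. Nptx1 and Nptx2 encode pentraxins, secreted proteins that cluster AMPA receptors, and Nptx2 is the form induced by activity. Ptgs2 encodes cyclooxygenase-2, which starts prostaglandin synthesis, Rgs2 shortens signalling through Gq proteins, and Gadd45b and Gadd45g encode stress-response proteins linked to DNA demethylation.

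On GRCm38 (GENCODE M21), Arc is a short gene at chr15:74669083-74672570 on the minus strand, and Npas4 lies at chr19:4984355-4990316, also on the minus strand. Homer1 is the longest of the 10, at chr13:93299635-93405129 on the plus strand, and 2 unnamed entries of the annotation that the count tables do not hold overlap it on the same strand. Counts from the 3′ end that are summed per gene do not separate Homer1a from the long forms. Nptx1 lies at chr11:119538719-119547753, Nptx2 at chr5:144545902-144557478, Ptgs2 at chr1:150100031-150108227, Rgs2 at chr1:143999338-144004161 and Plk2 at chr13:110395046-110400844. Gadd45b lies at chr10:80930073-80932204 and Gadd45g at chr13:51846678-51848468.

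The promoters of 4 of these genes carry the letters that CREB is known to bind. They are shown because CREB is the best-known activator of this group, and because 2 of the 4, Homer1 and Rgs2, were called between the genotypes in CA1 neurons, in opposite directions. The call of Rgs2 is not read as a difference in these neurons, for the reasons given with its levels below. RefSeq tables for GRCm38.p6 held windows for 7 of the 10 genes, and those of Arc, Nptx1 and Nptx2 were not among them. Each line gives the 250 bases before a RefSeq start, read 5′ to 3′ on the strand of the gene, in the order Npas4 (chr19:4989972-4990221, minus), Homer1 (chr13:93303507-93303756, plus), Rgs2 (chr1:144004150-144004399, minus) and Plk2 (chr13:110394794-110395043, plus). Capitals mark the half-site of the cAMP response element, TGACG or its reverse complement CGTCA.
Npas4: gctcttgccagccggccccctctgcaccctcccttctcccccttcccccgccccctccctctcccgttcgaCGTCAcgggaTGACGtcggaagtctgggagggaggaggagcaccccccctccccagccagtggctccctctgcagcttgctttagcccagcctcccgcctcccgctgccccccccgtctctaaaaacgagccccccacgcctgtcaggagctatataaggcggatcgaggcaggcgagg
Homer1: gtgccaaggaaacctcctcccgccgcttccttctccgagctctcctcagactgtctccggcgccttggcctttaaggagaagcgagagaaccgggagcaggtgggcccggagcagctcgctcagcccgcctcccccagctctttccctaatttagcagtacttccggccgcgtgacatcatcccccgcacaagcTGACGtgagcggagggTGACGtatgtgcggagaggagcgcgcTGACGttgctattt
Rgs2: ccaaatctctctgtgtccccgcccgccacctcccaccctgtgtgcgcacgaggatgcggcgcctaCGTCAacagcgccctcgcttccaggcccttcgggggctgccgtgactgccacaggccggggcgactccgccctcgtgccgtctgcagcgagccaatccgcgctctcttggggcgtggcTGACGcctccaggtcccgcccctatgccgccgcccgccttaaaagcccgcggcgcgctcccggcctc
Plk2: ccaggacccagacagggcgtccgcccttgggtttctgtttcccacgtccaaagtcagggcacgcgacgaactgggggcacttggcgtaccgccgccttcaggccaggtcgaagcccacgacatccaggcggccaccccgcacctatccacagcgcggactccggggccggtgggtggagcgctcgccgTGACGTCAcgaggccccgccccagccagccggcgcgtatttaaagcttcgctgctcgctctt
Npas4 had 2 half-sites, beginning 179 and 169 bases before the start. Homer1 had 3, at 56, 40 and 14 bases, Rgs2 had 2, at 185 and 67 bases, and Plk2 had 1 full palindrome TGACGTCA, which is 2 overlapping half-sites at 62 and 59 bases. Of 32851 promoter windows of this length, 17.8% held a half-site, 0.688% held 3 or more and 1.55% held the full palindrome. The windows of Ptgs2, Gadd45b and Gadd45g and a second window of Homer1 (chr13:93307784-93308033) held none of these letters. The AP-1 site TGANTCA, searched on both strands, and the CArG box bound by SRF were in none of the windows of these genes, against 6.75% and 1.47% of all windows. A match is a run of letters and says nothing of binding in these nuclei.

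The 4 libraries held 55640 barcodes, of which 55367 had at least 500 genes and were used, between 12565 and 16000 per library. Libraries held 73009975 to 80913580 UMIs (unique molecular identifiers, each 1 counted transcript), with medians of 3984 to 4846 UMIs per nucleus. Pairs of libraries shared 40 to 67 barcodes. Nuclei were assigned to classes by marker genes that hold none of the 10 genes, which placed 35852 nuclei (64.8%), among them 24067 neurons. A nucleus whose markers pointed to several classes or to none was left out, 29.9% and 32.1% of all nuclei in WT replicates 1 and 2, and 35.2% and 44.5% in KI replicates 1 and 2. Dentate gyrus (DG) granule neurons were 22.2% and 21.0% of nuclei in WT and 13.7% and 13.5% in KI. Of 28 further markers held back as a check, 23 were highest in their class. Among the exceptions were Dcc and Nr3c2, highest in CA3 instead of CA1 neurons. All libraries carry the same batch label.

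Transcripts of these genes were also counted in cells that should hold little of some of them, so each class is set against oligodendrocytes, the myelin-forming glia, of the same libraries. Levels are given as CPM, the UMIs of the gene per 1000000 UMIs counted in the nuclei of a class, in the order WT replicates 1 and 2 and KI replicates 1 and 2. Oligodendrocyte nuclei held Arc at 9.18, 9.78, 4.08 and 1.38 CPM, and 2.31%, 2.37%, 0.969% and 0.725% of them had an Arc UMI at median depths of 1602, 1700, 1639 and 2330 UMIs. The same nuclei held the 7 markers of CA1 neurons at summed levels of 2053, 2137, 1922 and 1262 CPM, with none of the 7 at 0, against 3823, 3534, 3972 and 3232 CPM in CA1 neurons. These markers summed to only 530, 529, 531 and 586 CPM in DG granule neurons and to 474, 450, 629 and 568 CPM in CA3 neurons. The oligodendrocyte level is therefore a comparison and not a measure of RNA from other cells in neurons. Arc in DG granule neurons, at 4.36, 3.48, 1.01 and 0.986 CPM, was below the oligodendrocyte level in all 4 libraries, as was the share of these nuclei with a UMI, at 1.94%, 1.66%, 0.523% and 0.491% and median depths of 4122 to 4778 UMIs. Arc counts in DG granule neurons are therefore given as measured, and are read neither as expression there nor as RNA from other cells. In inhibitory neurons Arc was at 4.74, 3.36, 1.19 and 1.15 CPM, again below the oligodendrocytes of each library. In CA1 neurons the gene was at 17.4, 20.4, 2.58 and 3.54 CPM, above the oligodendrocytes in 3 of 4 libraries, the exception being KI replicate 1. CA3 neurons held 7.0, 8.12, 2.31 and 1.97 CPM, above in 1 of 4 libraries by CPM and in 4 of 4 by UMIs per nucleus.

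Against oligodendrocytes, with the library as a block, 5 of the 10 genes were higher in CA1 neurons and 1 was lower, where 58.9% of all genes differed. Plk2 was higher by 1.86 ± 0.10 (log2 difference ± SE, adjusted p = 6.93e-07), Npas4 by 1.80 ± 0.21, Homer1 by 1.59 ± 0.17, Nptx2 by 1.14 ± 0.16 and Arc by 1.01 ± 0.27 (adjusted p = 0.00989), while Nptx1 was lower (-0.55 ± 0.14). Without WT replicate 1 or WT replicate 2 the adjusted p of Arc was 0.0598 or 0.0678, and it passed without either KI library. In CA3 neurons Ptgs2 (1.69 ± 0.17), Homer1 (1.23 ± 0.10), Npas4 (1.01 ± 0.24), Plk2 (0.59 ± 0.13) and Nptx1 (0.32 ± 0.11) were higher and Rgs2 was lower (-1.04 ± 0.25), where 59.3% of all genes differed. By CPM, without TMM factors, Nptx1 in CA3 neurons was above oligodendrocytes (76.8, 78.8, 73.4 and 53.5 CPM) in 1 of 4 libraries, so its call as higher holds on the TMM scale and is not read as a difference. Arc differed between CA3 neurons and oligodendrocytes by less than the standard error of 0.23 on the log2 scale. Nptx1 (0.63 ± 0.13) and Ptgs2 (0.76 ± 0.20) were higher in DG granule neurons and Arc was lower, against 50.3% of all genes. In subicular and cortical excitatory neurons Plk2, Npas4 and Homer1 were higher and Nptx1 was lower, against 48.9% of all genes. No member was higher in inhibitory neurons, and Arc, Nptx1, Nptx2 and Ptgs2 were lower, against 55.5% of all genes called and 27.8% called lower. With a library left out, Nptx1 lost its call in CA3 neurons whichever library it was (adjusted p from 0.0507 to 0.0872), and in subicular and cortical neurons without WT replicate 1, WT replicate 2 or KI replicate 1 (0.200, 0.164 and 0.116). Npas4 lost its call without WT replicate 1 in CA3 neurons (0.0526) and without WT replicate 1 or 2 in subicular and cortical neurons (0.0784 and 0.216). The same happened without WT replicate 2 to Arc in DG granule (0.0532) and inhibitory neurons (0.0727), without KI replicate 2 to Ptgs2 in DG granule neurons (0.0522) and without WT replicate 1 to Nptx2 in inhibitory neurons (0.0557). In all 5 classes the share of the 10 genes called was near or below that of all genes, so the values describe where each gene was counted and do not set the 10 apart.

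Of the 5 neuron classes, CA1 pyramidal cells held the highest levels of Arc, Npas4, Homer1 and Plk2 in each of the 4 libraries, and of Nptx2 in all but KI replicate 2, where DG granule neurons were higher. The level of Homer1 was 373, 343, 144 and 136 CPM in CA1 neurons, 213, 213, 140 and 135 CPM in CA3 neurons, 205, 231, 92.7 and 119 CPM in subicular and cortical neurons, 126, 110, 72.5 and 80.9 CPM in inhibitory neurons and 117, 110, 75.9 and 68.1 CPM in DG granule neurons. The DG and inhibitory levels overlapped, and in the KI libraries CA1 and CA3 levels were close. Plk2 was at 107, 98.7, 104 and 114 CPM in CA1 neurons and between 31.8 and 77.0 CPM in the other neuron classes, with no overlap. Nptx1 had another order, with 91.2, 85.1, 106 and 85.1 CPM in DG granule neurons, 66.9 to 73.4 CPM in CA3 neurons, 32.6 to 44.3 CPM in CA1 neurons and 23.6 to 33.5 CPM in inhibitory neurons, of which CA1 and inhibitory levels overlapped. Ptgs2 was at 17.8, 13.5, 22.3 and 14.7 CPM in CA3 neurons, the highest of the 5 classes in all libraries but KI replicate 2, where DG granule neurons held 15.1 CPM.

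**Figure D1:**
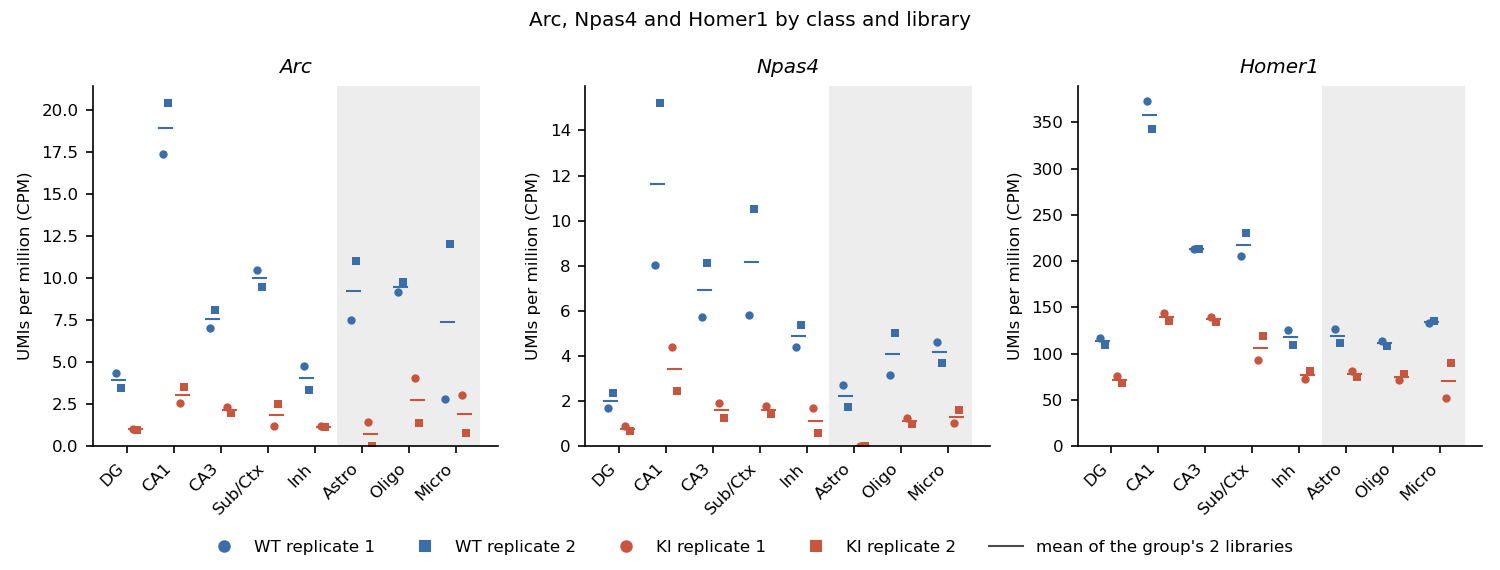
Levels of Arc, Npas4 and Homer1 in CPM (vertical axes) by class (horizontal axes: DG, CA1, CA3, subicular and cortical, inhibitory neurons, then astrocytes, oligodendrocytes and microglia on grey), with 1 point per library and a line at the mean of the 2 libraries of each genotype. Homer1 reached 373 and 343 CPM in CA1 neurons of WT and 144 and 136 CPM in KI, and Arc in the glial classes of WT lay between 2.78 and 12.0 CPM.

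The differences from CA1 neurons were tested within libraries. DG granule neurons held less Npas4 (-2.49 ± 0.19), Arc (-2.21 ± 0.20), Plk2 (-1.56 ± 0.12) and Homer1 (-1.41 ± 0.16) and more Nptx1 (1.13 ± 0.13), 5 of 10 genes against 38.2% of all genes. CA3 neurons held less Plk2 (-1.28 ± 0.08), Arc (-1.13 ± 0.17), Nptx2 (-0.94 ± 0.12), Rgs2 (-0.89 ± 0.18), Npas4 (-0.80 ± 0.16) and Homer1 (-0.40 ± 0.12), and more Ptgs2 (1.42 ± 0.16) and Nptx1 (0.85 ± 0.07), 8 of 10 against 34.8%. The Homer1 difference lost its call without WT replicate 1 (-0.25, adjusted p = 0.108) or WT replicate 2 (-0.30, 0.119). Inhibitory neurons held less of 7 genes, against 46.9% of all genes called and 23.9% called lower: Arc (-2.15 ± 0.22), Nptx2 (-2.07 ± 0.23), Plk2 (-1.82 ± 0.08), Ptgs2 (-1.71 ± 0.21), Npas4 (-1.48 ± 0.20), Homer1 (-1.41 ± 0.14) and Nptx1 (-0.55 ± 0.08). The other 3, Gadd45b, Gadd45g and Rgs2, did not pass the test there. The median of the 10 genes was -0.52 in DG granule neurons, -0.60 in CA3 neurons and -1.44 in inhibitory neurons, against medians of 0.01, -0.01 and 0.00 over all genes tested. Scaling by library totals in place of TMM factors moved the median of all genes to 0.11 for DG and 0.16 for inhibitory neurons, and the directions above are relative to the TMM scale.

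Outside neurons, Gadd45g was highest in astrocytes, at 39.5, 26.6, 42.1 and 36.6 CPM against at most 9.67 CPM in any of the 5 neuron classes of any library. Rgs2 was highest in microglia, the immune cells of the brain, at 25.9, 34.1, 18.2 and 16.2 CPM against at most 10.2 CPM in the 5 neuron classes. Of these neuron classes, astrocytes, oligodendrocytes and microglia, a glial class thus held the highest level of both genes in all 4 libraries.

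**Figure D2:**
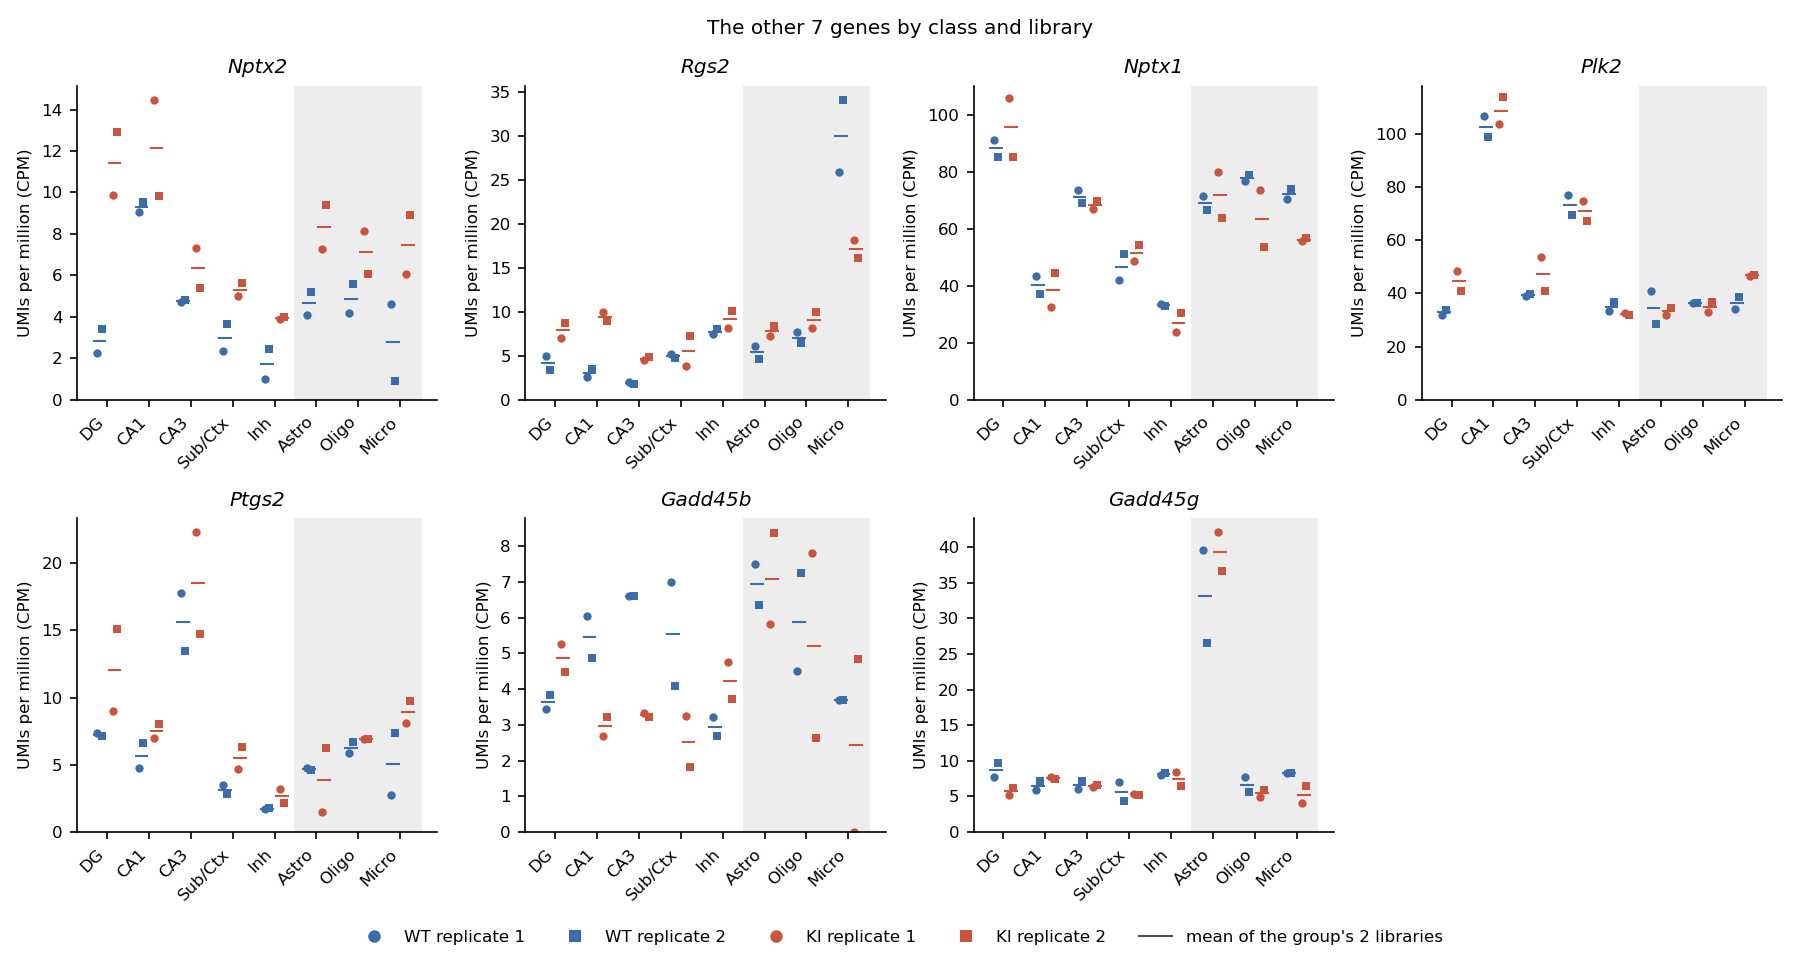
Levels of Nptx2, Rgs2, Nptx1, Plk2, Ptgs2, Gadd45b and Gadd45g in CPM (vertical axes) by class (horizontal axes, glial classes on grey), with 1 point per library and a line at the mean of the 2 libraries of each genotype. Nptx2 in DG granule neurons lay at 2.24 and 3.41 CPM in WT and at 9.88 and 12.9 CPM in KI, and Gadd45g stood out in astrocytes at 26.6 to 42.1 CPM.

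Over all nuclei, Arc and Homer1 were lower in KI than in WT hippocampi, and no member was higher. Arc was counted 685 and 747 times in WT and 140 and 161 times in KI, 8.86, 10.2, 1.92 and 1.99 CPM. Both KI libraries lay far under both WT libraries, and Arc fell by 2.23 ± 0.18 on the log2 scale (edgeR, adjusted p = 0.0390). Homer1 was at 197, 194, 104 and 109 CPM and fell by 0.83 ± 0.08 (adjusted p = 0.0390). These 2 of 10 genes compare with 0.771% of all genes called, or 0.324% called lower, and the median of the 10 was -0.09 against 0.01 over all genes. Npas4, at 4.91, 7.63, 2.22 and 1.62 CPM (-1.65 ± 0.30), missed the threshold with an adjusted p of 0.0673, as did Rgs2 (0.92 ± 0.18, 0.0704) and Nptx2 (0.81 ± 0.17, 0.0759), and DESeq2 called all 3. In sums over all nuclei, fewer nuclei of a class and less RNA per nucleus cannot be told apart, and the share of DG granule neurons differed between the groups as given above.

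In CA1 neurons Arc and Homer1 fell in KI, and Rgs2 was called higher. Arc, at 17.4, 20.4, 2.58 and 3.54 CPM from 190, 201, 27 and 23 UMIs, fell by 2.58 ± 0.22 on the log2 scale (adjusted p = 0.00414). The KI levels were near those of oligodendrocytes (4.08 and 1.38 CPM), so the size is that of the counts and not of expression in these neurons. An Arc UMI was found in 10.0% (exact 95% interval 8.64 to 11.6) and 13.3% (11.5 to 15.2) of WT nuclei and in 2.17% (1.42 to 3.16) and 2.63% (1.68 to 3.92) of KI nuclei, intervals that cover counting error only. After each nucleus was thinned to 2000 UMIs the shares were 3.39% and 4.97% in WT and 0.671% and 0.461% in KI. Oligodendrocytes gave 1.31%, 1.24%, 1.07% and 0.266% thinned in the same way, from 10, 6, 8 and 2 nuclei with an Arc UMI. These were among the 766, 483, 747 and 753 oligodendrocytes that were deep enough. At such counts the KI shares in CA1 neurons were near that level, and the WT shares were above it. Homer1 fell by 1.28 ± 0.10 (adjusted p = 0.00310), from 373 and 343 CPM to 144 and 136 CPM. It was found in 76.2% (74.1 to 78.2) and 77.5% (75.1 to 79.8) of WT nuclei and in 62.9% (60.1 to 65.6) and 55.5% (52.1 to 58.8) of KI nuclei, and thinned in 45.8%, 41.7%, 24.9% and 23.9%. Both genes passed in all 12 fits tried, 4 of them with a library left out, with adjusted p up to 0.0180 for Arc and 0.0223 for Homer1.

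Rgs2, the brake on Gq signalling, was at 2.56, 3.55, 9.96 and 8.92 CPM and differed by 1.71 ± 0.26 (adjusted p = 0.0171), with both KI libraries above both WT libraries. It lost its call without WT replicate 1 (adjusted p = 0.177) or WT replicate 2 (0.0836). Oligodendrocytes of the same libraries held 7.68, 6.42, 8.16 and 9.95 CPM, so CA1 neurons were above them in 1 of 4 libraries by CPM and in 3 of 4 by UMIs per nucleus, and the call is not read as a difference in these neurons. Npas4 was at 8.05, 15.2, 4.41 and 2.46 CPM in CA1 neurons (-1.61 ± 0.40, adjusted p = 0.0598), without overlap of the groups, as for 8 of the 10 genes and 57.6% of all genes tested, but with wide gaps between the libraries of each genotype, and DESeq2 called it (0.00996). The 3 genes called compare with 5.72% of all genes, and the median of the 10 was 0.07 against 0.00. Of the rest, Nptx1 (-0.01), Plk2 (0.15), Gadd45g (0.28) and Ptgs2 (0.47) had small differences, and Gadd45b was at 6.04, 4.87, 2.68 and 3.23 CPM (-0.83 ± 0.28, adjusted p = 0.122).

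In CA3 neurons Npas4, Homer1 and Arc were called lower in KI. Npas4 was at 5.72, 8.12, 1.92 and 1.26 CPM from 58, 64, 15 and 7 UMIs and fell by 1.98 ± 0.37 (adjusted p = 0.0362). Oligodendrocytes held 3.17, 5.03, 1.24 and 0.968 CPM, below CA3 neurons in 4 of 4 libraries. The KI levels were near those of oligodendrocytes, so the size is that of the counts and not of expression in these neurons. Arc was at 7.0, 8.12, 2.31 and 1.97 CPM and differed by -1.71 ± 0.30 (adjusted p = 0.0310). By CPM 3 of the 4 libraries lay below their oligodendrocytes, while by UMIs per nucleus 4 of 4 lay above them. As the measures disagree, the call is not read as a difference in these neurons. Homer1 was at 213, 213, 140 and 135 CPM and fell by 0.55 ± 0.10 (adjusted p = 0.0353). These 3 of 10 lower genes compare with 2.54% of all genes called, or 0.867% called lower, and all 3 lost their call without WT replicate 1 (adjusted p from 0.0545 to 0.370) or WT replicate 2 (0.176 to 0.287). Rgs2, at 1.97, 1.78, 4.48 and 4.84 CPM (1.38 ± 0.33, adjusted p = 0.0676), and Gadd45b, at 6.61, 6.60, 3.33 and 3.23 CPM (-0.92 ± 0.27, adjusted p = 0.115), did not pass. Their groups did not overlap, as held for 7 of the 10 genes and 54.7% of all genes tested.

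In DG granule neurons the pentraxin Nptx2 was called higher in KI. It was at 2.24, 3.41, 9.88 and 12.9 CPM from 37, 48, 88 and 118 UMIs, and it differed by 2.16 ± 0.27 on the log2 scale (adjusted p = 0.00909). A UMI was found in 1.01% (0.711 to 1.40) and 1.37% (0.972 to 1.88) of WT nuclei and in 4.82% (3.86 to 5.94) and 5.84% (4.81 to 7.01) of KI nuclei, and after thinning in 0.410%, 0.663%, 1.70% and 3.19%. Oligodendrocytes held Nptx2 at 4.17, 5.59, 8.16 and 6.08 CPM, above the DG granule neurons in both WT libraries and below them in both KI libraries, so the size of the difference is that of the counts and not of expression in these neurons. The gene passed in all 12 fits, with adjusted p up to 0.0387. Both KI libraries also lay above both WT libraries in the other neuron classes, where edgeR did not call it and where 46.4% (subicular and cortical) to 57.6% (CA1) of all genes tested had no overlap in the 3 excitatory classes. By CPM it was above oligodendrocytes in 4 of 4 libraries in CA1 neurons, 1 of 4 in CA3 neurons and none in subicular and cortical or inhibitory neurons. Nptx2 was at 4.74, 4.82, 7.30 and 5.38 CPM in CA3 neurons (0.51 ± 0.28), 2.33, 3.65, 5.02 and 5.61 CPM in subicular and cortical neurons (0.79 ± 0.43) and 1.02, 2.47, 3.90 and 4.01 CPM in inhibitory neurons (1.34 ± 0.47), and in CA1 neurons the difference was 0.49 ± 0.24. In oligodendrocytes it was 0.64 ± 0.35. The Arc levels given above lay below those of oligodendrocytes in both groups, and the source of these counts was not tested. Arc differed by -1.83 ± 0.33 on the log2 scale (adjusted p = 0.0256), which for that reason is not read as a difference in these neurons. It lost its call with DESeq2 (0.0511), without WT replicate 1 (0.269) and without WT replicate 2 (0.134). These 2 of 10 genes compare with 8.68% of all genes. Homer1 was at 117, 110, 75.9 and 68.1 CPM (-0.51 ± 0.12, adjusted p = 0.0526), Plk2 at 32.0, 33.6, 48.3 and 41.0 CPM (0.59 ± 0.15, 0.0618), Rgs2 at 5.03, 3.34, 7.08 and 8.76 CPM (1.05 ± 0.27, 0.0652) and Ptgs2 at 7.39, 7.11, 8.99 and 15.1 CPM (0.87 ± 0.25, 0.0856). None of these 4 passed. Their groups did not overlap, as held for 9 of the 10 genes and 63.1% of all genes tested. Scaling by library totals moved the median of all genes to -0.14 here, and with it Homer1 passed (-0.66, adjusted p = 0.0190).

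In the other neuron classes edgeR with its low-count filter called none of the 10 genes, while without the filter it called Arc, Npas4 and Homer1 in both (adjusted p from 1.25e-05 to 0.0154), and DESeq2 called Homer1 in subicular and cortical neurons (0.00360). In subicular and cortical neurons edgeR called 0.00% of all genes, with 1658 at an unadjusted p under 0.05, and DESeq2 called 51. Arc there was at 10.5, 9.45, 1.18 and 2.53 CPM (-2.26 ± 0.44, adjusted p = 0.129), Npas4 at 5.83, 10.5, 1.77 and 1.45 CPM (-2.38 ± 0.48, 0.134) and Homer1 at 205, 231, 92.7 and 119 CPM (-0.98 ± 0.17, 0.109), all 3 without overlap, as for 6 of the 10 genes and 46.4% of all genes tested. In inhibitory neurons edgeR called 0.0734% of all genes and DESeq2 161, and Npas4 was at 4.40, 5.38, 1.70 and 0.573 CPM (-2.02 ± 0.51, adjusted p = 0.125). Homer1 differed there by -0.52 ± 0.13 (0.118) and Arc by -1.69 ± 0.44 (0.129). By groups of interneurons, medial-eminence-type nuclei, which hold the somatostatin and parvalbumin cells, had 15, 13, 3 and 2 UMIs of Npas4, and caudal-eminence-type nuclei, which hold the vasoactive intestinal peptide cells, had 4, 6, 5 and 1. At such counts no difference between these groups can be seen.

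**Figure D3:**
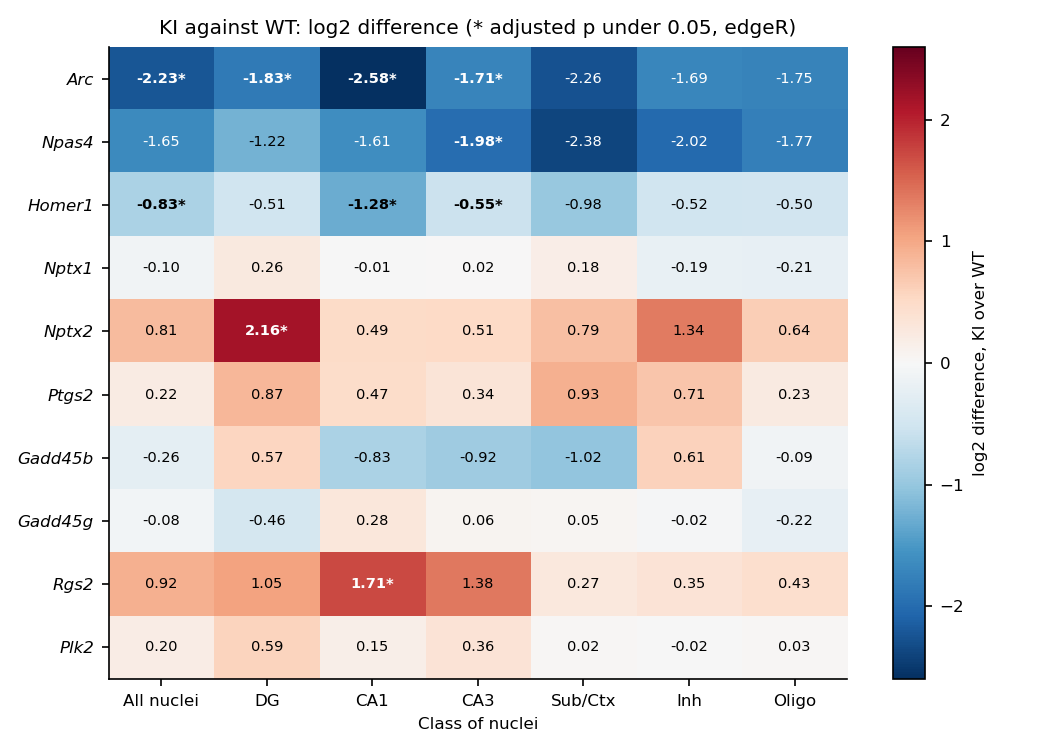
Difference between KI and WT (log2, colour and printed value) for each of the 10 genes (vertical axis) in all nuclei and 6 classes (horizontal axis), with a star where the adjusted p of edgeR was under 0.05. Arc ran from -2.58 in CA1 neurons to -1.69 in inhibitory neurons, Nptx2 reached 2.16 in DG granule neurons, and no value in oligodendrocytes passed.

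The differences found in neurons had the same sign in oligodendrocytes for the leading genes. In oligodendrocytes Npas4 differed by -1.77 ± 0.47, Arc by -1.75 ± 0.51 and Homer1 by -0.50 ± 0.16, with adjusted p of 0.367, 0.394 and 0.424, where edgeR called 0.00% of genes and 1602 had an unadjusted p under 0.05. Without KI replicate 1 the adjusted p of Arc there was 4.26e-05 and without KI replicate 2 it was 0.0153. The difference in each neuron class less that in oligodendrocytes was then tested with the library as a block, and none of the 10 genes passed in any of the 5 classes. For CA1 neurons this was -0.79 ± 0.54 for Arc (adjusted p = 0.823, unadjusted 0.186), -0.77 ± 0.20 for Homer1 (adjusted p = 0.429, unadjusted 0.00582) and 1.32 ± 0.40 for Rgs2 (0.525), and for DG granule neurons it was 1.58 ± 0.40 for Nptx2 (0.268, unadjusted 0.00494). Over all genes these tests called 4 in DG granule neurons (0.0238%) and 0 in the other 4 classes, with 841 to 1593 genes at an unadjusted p under 0.05, and no other tool was run on them. The share of RNA from other cells in each nucleus was not measured, and its part in these differences was not tested.

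Between neuron classes the difference itself was tested against CA1 neurons. The KI effect on Homer1 was less negative in DG granule neurons (difference of the KI effects 0.79 ± 0.10, adjusted p = 0.000267), in CA3 neurons (0.73 ± 0.09, 2.99e-05) and in inhibitory neurons (0.78 ± 0.12, 0.00866) than in CA1 neurons. By CPM Homer1 was above oligodendrocytes in 3 of 4 libraries in DG granule neurons and in 4 of 4 in CA3 and inhibitory neurons. The test against oligodendrocytes did not call it higher in DG granule or inhibitory neurons, so those contrasts are given as differences of counts. Nptx2 differed more between the genotypes in DG granule neurons than in CA1 neurons (1.69 ± 0.32, adjusted p = 0.00533), where it was at 9.06, 9.53, 14.5 and 9.84 CPM. By CPM Nptx2 was above oligodendrocytes in 2 of 4 libraries in DG granule neurons, so the size of this difference is that of the counts. Gadd45b had opposite signs, 0.57 in DG granule neurons and -0.83 in CA1 neurons, and this difference passed (1.43 ± 0.34, adjusted p = 0.0191) although neither value did alone. By CPM Gadd45b was above oligodendrocytes (4.51, 7.26, 7.81 and 2.63 CPM) in 1 of 4 libraries in DG granule neurons and in 2 of 4 in CA1 neurons, so this is a difference of counts and is not read as one of expression. Leaving out WT replicate 1 ended the calls of Nptx2 (adjusted p = 0.0595), Gadd45b (0.232) and, for inhibitory neurons, Homer1 (0.0533). Without WT replicate 2 those of Gadd45b (0.0922) and of Homer1 in inhibitory neurons (0.0680) were lost, and that of Gadd45b also without KI replicate 1 (0.0520) or with a stricter gate for the classes (0.121). The 3 genes called for DG granule neurons compare with 10.8% of all genes called, or 5.22% called in that direction, the 1 for CA3 neurons with 2.41% or 1.07%, and the 1 for inhibitory neurons with 1.70% or 0.768%. For Arc the difference between CA3 and CA1 neurons was 0.87 ± 0.37 (adjusted p = 0.299), so the differences in CA1 and CA3 neurons were not separated. These comparisons share the CA1 nuclei of the same 4 mice.

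The counts per nucleus show how the transcripts were spread. In CA1 neurons 19 and 23 WT nuclei held 2 or more Arc UMIs, with at most 3 and 4 in 1 nucleus, against 1 and 0 KI nuclei. Homer1 had a longer tail in WT. The nucleus with the most Homer1 UMIs held 39 and 40 in WT and 12 and 9 in KI among CA1 neurons, 83 and 89 against 9 and 11 in CA3 neurons, and 38 and 28 against 4 and 7 in DG granule neurons. In all 3 classes the highest nucleus of each WT library thus held more than that of either KI library. The median depths were 5854 and 6882 UMIs in WT and 7712 and 6547 in KI for CA1 nuclei, and the WT libraries held more nuclei of each of these classes. Among thinned WT CA1 nuclei, Homer1 was found in 51.8% and 50% of those with an Arc UMI (56 and 64 nuclei) and in 45.6% and 41.3% of those without. Npas4 was found in 1.79% and 10.9% of the Arc nuclei against 1.5% and 2.78% of the others, and the KI libraries had 8 and 4 Arc nuclei, too few to compare.

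**Figure D4:**
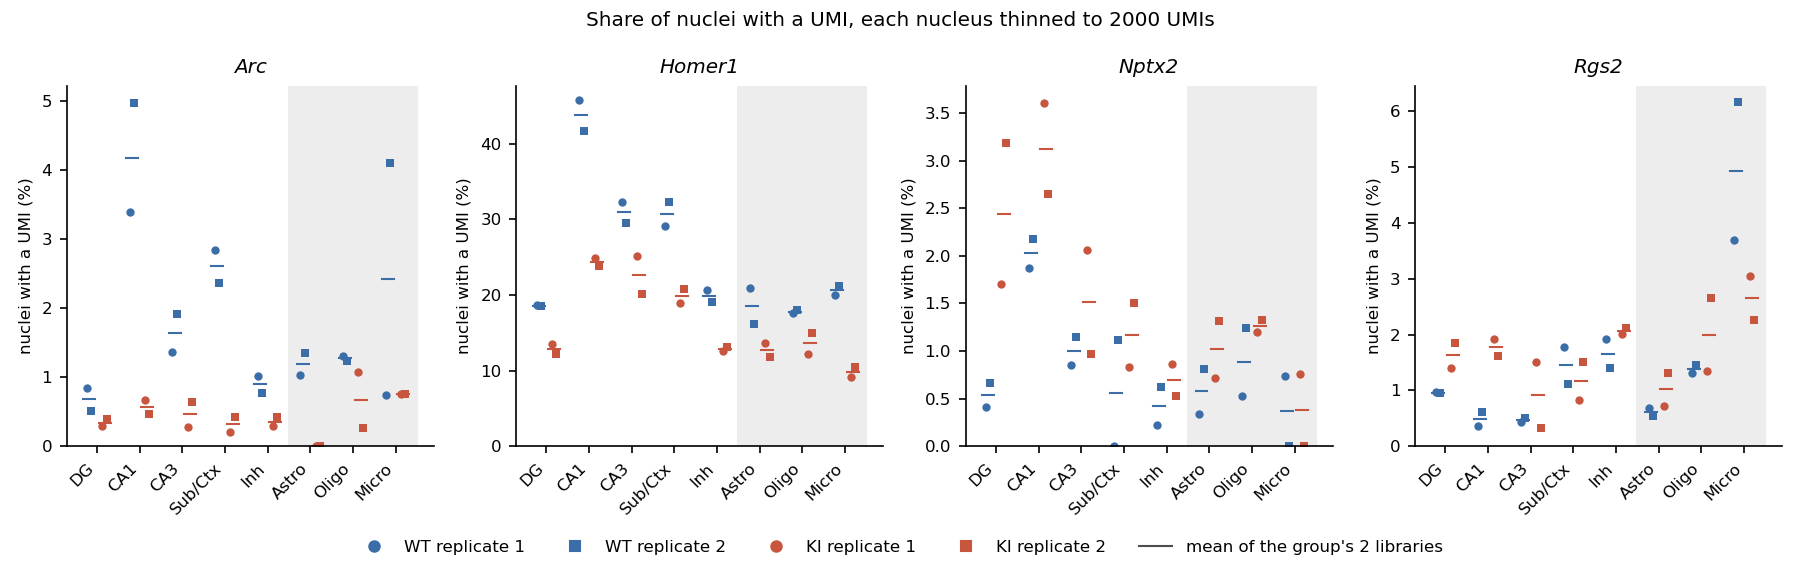
Share of nuclei with a UMI of Arc, Homer1, Nptx2 and Rgs2 (percent, vertical axes) by class (horizontal axes, glial classes on grey) after each nucleus was thinned to 2000 UMIs, with 1 point per library and a line at the mean of the 2 libraries of each genotype. Arc was found in 3.39% and 4.97% of CA1 nuclei in WT and in 0.671% and 0.461% in KI, and Nptx2 in DG granule neurons in 0.410% and 0.663% in WT and 1.70% and 3.19% in KI.

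Genes of the same programme were counted from 3 lists. Of 18 rapid-response transcription factors, 14 were tested in CA1 neurons, 8 were lower in KI and none was higher, where 5.72% of all genes were called, with a median of -1.39 against 0.00 over all genes. None of the 14 tested in oligodendrocytes passed, with a median of -0.55 against 0.03, and none of 15 passed for the KI effect in CA1 neurons less that in oligodendrocytes (median -0.74). Egr1, a zinc-finger factor induced within minutes, fell by 2.48 ± 0.24 from 17.0 and 18.2 CPM to 3.45 and 2.31 CPM. The nuclear receptors Nr4a3 and Nr4a2 fell by 2.28 ± 0.16 and 1.39 ± 0.24, and Klf10 by 1.39 ± 0.17. In CA3 neurons 3 of 11 tested were lower, Klf10 (-2.04 ± 0.17), Nr4a2 (-1.34 ± 0.21) and Nr4a3 (-0.98 ± 0.14), where 2.54% of all genes were called and 0.867% were lower. In DG granule neurons only Klf10 was lower (-1.85 ± 0.20) and Ier5 was higher (1.28 ± 0.23) among 15 (8.68% of all genes called), and over all nuclei Nr4a3 and Klf10 were lower among 18 (0.771%). None of 10 and 13 tested passed in subicular and cortical and in inhibitory neurons, where the medians were -1.32 and -0.54. The KI effect was higher in DG granule neurons than in CA1 neurons for 7 of 14 of these factors, where 10.8% of all genes were called and 5.22% were higher.

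Of 17 other effectors, 15 were tested in CA1 neurons and 2 were lower, where 5.72% of all genes were called, one being Pcsk1, a protease that cuts prohormones, which fell by 2.59 ± 0.18 from 33.0 and 37.7 CPM to 5.94 and 5.08 CPM. In CA3 neurons Pcsk1 (-1.13 ± 0.17) and Bdnf (-0.80 ± 0.13), the brain-derived neurotrophic factor, were lower among 15 (2.54% of all genes called), and over all nuclei only Pcsk1 was lower (-1.21 ± 0.16) among 17 (0.771%). In DG granule neurons 3 of 16 were higher and none lower, where 8.68% of all genes were called, and none of 16 passed for the KI effect there less that in oligodendrocytes. Bdnf rose by 1.68 ± 0.10, from 54.7 and 54.2 CPM to 155 and 162 CPM, the sorting receptor gene Sorcs3 by 1.70 ± 0.16 and Scg2, a secretory granule protein, by 1.23 ± 0.12. None of 15 passed in subicular and cortical or in inhibitory neurons.

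Of 24 partners and relatives of the 10 genes, 23 were tested in DG granule neurons, 2 were higher and 4 were lower, where 8.68% of all genes were called. None of 23 passed for the KI effect in DG granule neurons less that in oligodendrocytes. Itpr1, the inositol trisphosphate receptor that long Homer proteins bind, fell by 2.17 ± 0.31, from 382 and 370 CPM to 48.0 and 106 CPM. The Homer1 relative Homer2 fell by 1.37 ± 0.18, the scaffold gene Shank1 by 0.46 ± 0.10 and the AMPA receptor subunit gene Gria1 by 0.37 ± 0.08. In CA1 neurons Itpr1 (-0.50 ± 0.09) and Homer2 (-0.50 ± 0.10) were lower and 1 of the 22 tested was higher (5.72% of all genes called). Itpr1 was also lower over all nuclei (-0.75 ± 0.10), the only 1 of 24 (0.771% of all genes called), and none of 22 passed in each of CA3, subicular and cortical, and inhibitory neurons.

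Over the 28 sums of neuron classes and libraries, 6628 genes of at least 20 CPM were ranked by the likeness of their pattern, as the correlation of log2(CPM + 1), a description in which sums of 1 library share its depth. The patterns most like that of Arc were those of Ankrd13b (r = 0.860), Gpt2 (0.821) and Ptpn1 (0.811). For Homer1 they were Aff3 (0.871), Nr4a3 (0.834) and Crmp1 (0.829), of which Nr4a3 is in the list of transcription factors above. For Nptx2 they were Rap2b (0.725), Gm13481 (0.685) and Zfp697 (0.684). The CA2 neurons and mossy cells behind some of these sums were few, with 24 to 33 and 15 to 22 nuclei per library, and Arc had at most 6 UMIs in either class of any library.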

How the data were processed

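Frozen hippocampi of 2 WT and 2 KI mice were profiled by droplet single-nucleus RNA-sequencing from the 3′ end, 1 library per mouse. The deposited UMI counts per gene and nucleus come, per the file headers, from Cell Ranger 7.0.1 as run by the authors, and the submitters' processing notes name mm10. The gene annotation, and whether intronic reads were counted, are not given in the sources used here. The deposited counts are raw and hold only barcodes called as nuclei.

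Nuclei with at least 500 genes were kept. Each was assigned to the class whose markers stood out most, as the mean log2 ratio of the count plus 1 to its expectation from depth plus 1, with a minimum and a lead over the next class of 0.15 and at least 3 markers detected. A total of 4596 nuclei lay within 0.05 of this limit, which was set after the data had been seen. No doublet caller was run, and nuclei with markers of several classes were left out. The classes are a new assignment, so their members need not be those of the study's own clusters.

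Nuclei of 1 mouse are not replicates, so counts were summed per library and class and tested with edgeR 4.0.16 in R 4.3.3 (low-count filter, TMM factors, quasi-likelihood test, Benjamini-Hochberg adjustment over all genes tested, threshold 0.05). Class comparisons and differences of KI effects had the library as a block. Standard errors were the log2 difference over the root of the F statistic. The study tested single nuclei, which this replaces. Shares were also taken after thinning each nucleus to 2000 UMIs without those shallower, which left out 2 to 137 CA1 and DG nuclei and 627 to 1526 oligodendrocytes per library. Intervals are exact (Clopper-Pearson) at 95%, and a count of 0 allows up to 3 counts. The fits were tested on simulated data.

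All 10 members are named with their values. Of each list, up to 4 genes per comparison are named, those past the threshold with the largest change and at least 10 CPM, and the 3 genes most like Arc, Homer1 and Nptx2. The members and lists were chosen with earlier results of these data known. Alternatives were library totals, no filter, DESeq2 1.42.0, a replicate block, each library left out, at least 1000 genes, under 5% mitochondrial UMIs and a stricter gate of 0.3. The comparisons with oligodendrocytes and a crossed block for inhibitory neurons were added after seeing the data. With 1 mouse per library and 2 per group, p-values rest on the spread between 4 animals.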

Additional observations from a re-analysis of the deposited data

Results flagged for a closer look

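The KI effect differed between neuron classes for 3 of the 10 genes, by the test of the difference itself, in comparisons with CA1 neurons that called 10.8% (DG granule), 2.41% (CA3) and 1.70% (inhibitory neurons) of all genes. The effect on Homer1 was less negative than in CA1 neurons in DG granule neurons (difference 0.79 on the log2 scale), in CA3 neurons (0.73) and in inhibitory neurons (0.78). In DG granule and inhibitory neurons Homer1 was not called above oligodendrocytes, so those contrasts are differences of counts. The KI mean of Homer1 was 0.390 of the WT mean in CA1 neurons, 0.635 in DG granule neurons and 0.644 in CA3 neurons. By CPM Nptx2 was above oligodendrocytes in 2 of 4 libraries in DG granule neurons and in 4 of 4 in CA1 neurons, so its difference is one of counts. For Nptx2 the difference between DG granule and CA1 neurons was 1.69, with KI means of 11.4 CPM in DG granule neurons (WT 2.83) and 12.2 CPM in CA1 neurons (WT 9.29). For Gadd45b it was 1.43, with means of 3.65 CPM in WT and 4.88 CPM in KI for DG granule neurons and of 5.45 and 2.96 CPM for CA1 neurons, and by CPM it was above oligodendrocytes in 1 of 4 and 2 of 4 libraries of these classes. The call of Gadd45b was lost without WT replicate 1, WT replicate 2 or KI replicate 1 and with the stricter gate, that of Nptx2 without WT replicate 1, and that of Homer1 in inhibitory neurons without WT replicate 1 or 2. Groups of 2 libraries allow no test for an outlying library.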

How the results depend on the processing

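No difference of a member that passed the test changed its sign under the alternatives run for it. The levels against oligodendrocytes were refitted only with a library left out, not with another scaling, and by CPM Nptx1 in CA3 neurons was above oligodendrocytes in 1 of 4 libraries. Class comparisons with CA1 neurons called 5 to 8 members under each alternative. Between the genotypes, the number of members called moved with the setting. Without the low-count filter it was 6 in DG granule neurons (2 with the filter), 5 in CA3 neurons (3), 3 in subicular and cortical neurons (0) and 3 in inhibitory neurons (0), and 5 and 3 for the differences of DG granule and inhibitory from CA1 neurons (3 and 1). DESeq2 called 5 over all nuclei (2) and 1 in subicular and cortical neurons, and it gave Arc in DG granule neurons an adjusted p of 0.0511. Library totals gave 2 for the difference of inhibitory from CA1 neurons. The replicate numbers are not said to pair the mice. Deviations of same-numbered libraries correlated between -0.128 and 0.0604 over genes, which with 2 libraries per group cannot show how the mice were handled. The replicate block called 5 members over all nuclei, 6 in granule neurons of the DG and 3 in subicular and cortical neurons, and the crossed block 2 in inhibitory neurons. Of all genes, the fits without the low-count filter called 670 over all nuclei (169 with it), 2808 in DG granule (1398), 2905 in CA1 (901), 1830 in CA3 (384), 558 in subicular and cortical (0) and 990 in inhibitory neurons (11), and 594 for the difference of CA3 from CA1 neurons (393). DESeq2 called 1911, 51 and 161 over all nuclei, in subicular and cortical and in inhibitory neurons. The block called 1954 over all nuclei, 2390 in DG granule, 1098 in CA3, 123 in subicular and cortical and 31 in inhibitory neurons, where library totals gave 37, the stricter gate 102 and the crossed block 430.

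With 1 library left out, the lone library of a genotype was assumed to vary like the others. The members called then ranged from 2 to 5 over all nuclei, 1 to 9 in DG granule neurons, 2 to 6 in CA1 neurons, 0 to 8 in CA3 neurons, 0 to 3 in subicular and cortical neurons, 0 to 2 in inhibitory neurons and 0 to 4 in oligodendrocytes. For the differences from CA1 neurons the ranges were 1 to 7 in DG granule, 1 to 2 in CA3 and 0 to 2 in inhibitory neurons. For the differences from oligodendrocytes they were 0 to 3 in DG granule, 0 to 4 in CA1, 0 to 2 in CA3 and 0 to 1 in subicular and cortical neurons, and the level of subicular and cortical neurons against oligodendrocytes gave 2 to 4. Over all genes, again with 1 library left out, the calls between genotypes ranged from 130 to 7460 in all nuclei (169), 282 to 7512 in DG granule neurons (1398), 67 to 6268 in CA1 neurons (901), 81 to 5025 in CA3 neurons (384), 15 to 958 in subicular and cortical neurons (0), 217 to 2772 in inhibitory neurons (11) and 0 to 4282 in oligodendrocytes (0). The differences from CA1 neurons ranged from 509 to 3374 (1801), 241 to 816 (393) and 84 to 452 (272, and 727 without the low-count filter) for DG granule, CA3 and inhibitory neurons, and those from oligodendrocytes from 0 to 2770 (4), 2125, 1856, 955 and 1198 (each 0) for DG granule, CA1, CA3, subicular and cortical, and inhibitory neurons. Between the genotypes the highest counts came without KI replicate 2. In all nuclei and each of the 5 neuron classes KI replicates spread more (SD of log2 values 0.467 to 0.554) than WT replicates (0.272 to 0.475), and the cause was not tested. In the 5 neuron classes tested, a library held as few as 4 UMIs of a gene. With such counts and 2 mice per group, small differences in Arc, Npas4, Nptx2, Rgs2 and Gadd45b could not be seen at this depth.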
